A study of Bos taurus with 11 samples.

Results

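Keratins are the filament proteins of epithelial cells, and 8 of them that mark the luminal or the basal layer of mammary epithelium were followed through 3 regions of the heifer mammary gland. They were chosen by symbol as KRT7, KRT8, KRT18 and KRT19, grouped here as luminal, and KRT5, KRT14, KRT15 and KRT17, grouped here as basal. All 8 were found in the deposited table, each on 1 line, among 16279 genes. The RNA came from Holstein heifers aged 10 to 12 months that the labels call untreated. Parenchyma, which contains the branching epithelial ducts, and far stroma were sampled in heifers 1, 3, 4 and 5 (n = 4 each), and close stroma in heifers 3, 4 and 5 (n = 3). The 11 samples thus came from 4 animals, and the labels give no distance between the regions and no sorting of cells.

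Keratin filaments are built from pairs of a type I and a type II protein. KRT5, KRT7 and KRT8 are of type II, and KRT14, KRT15, KRT17, KRT18 and KRT19 are of type I. In the mammary gland, luminal cells that line the duct use KRT8 with KRT18, together with KRT7 and KRT19, while the basal and myoepithelial cells around them use KRT5 with KRT14. In the bovine assembly ARS-UCD2.0, KRT18 is the gene next to KRT8, and KRT15 is the gene next to KRT19.

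Levels are the authors' normalised counts, from which the reads behind each value could be recovered. Reads recovered per sample ranged from 7274474 to 11156909. The column taken as close stroma of heifer 4 ends in a letter that the labels do not explain, and the count of keratins called in each comparison was the same without it. Normalised counts are not divided by transcript length, so levels are compared between samples and not between genes. Reads shared between similar keratins may have been split or dropped by the authors' counting, since the sources used here do not say how it handled them.

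The 8 keratins were high in parenchyma and close stroma and at low levels in far stroma. Every one was higher in parenchyma than in far stroma in 4 of 4 heifers, and none had overlapping values. The limma test across all genes called 8 of 8 higher, where 26.1% of 14596 tested genes were called higher and 23.99% lower, and 23.97% had every parenchyma sample above every far stroma sample. The median log2 difference of the 8 was 8.70, against 0.06 for all tested genes, and 8.94 with KRT14 set at its ratio of reads. In tissue samples such as these, fewer epithelial cells and less keratin RNA per cell cannot be told apart.

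Among the luminal keratins, KRT8 (ENSBTAG00000000836), the type II filament protein of simple epithelia, stood at 2874, 3257, 3746 and 3462 normalised counts in parenchyma samples of heifers 1, 3, 4 and 5. In their far stroma KRT8 stood at 10.8, 3.60, 15.8 and 4.84. The lowest parenchyma sample was thus far above the highest far stroma sample. The log2 difference of KRT8 was 8.60 ± 0.35 (SE, limma adjusted p = 4.38e-09). KRT18 (ENSBTAG00000001517), the type I partner of KRT8, stood at 1816, 2137, 2970 and 2901 in parenchyma and at 5.87, 6.0, 16.9 and 1.61 in far stroma. The sample of heifer 4 was the highest of both regions for KRT18 and for KRT8, and the log2 difference of KRT18 was 8.45 ± 0.48 (SE, limma adjusted p = 5.04e-08).

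KRT7 (ENSBTAG00000016165), a type II keratin of glandular and ductal epithelia, stood at 4820, 5962, 5936 and 6656 in parenchyma. In far stroma KRT7 stood at 11.7, 4.80, 13.5 and 6.45, and no values overlapped. Its log2 difference of 9.26 ± 0.28 (SE, limma adjusted p = 1.05e-09) ranked at place 9 from the top of all tested genes. It was the first of the 8 keratins by the limma estimate. KRT19 (ENSBTAG00000004905), the smallest type I keratin, stood at 9073, 7983, 5910 and 10015 in parenchyma and at 26.4, 151.2, 44.0 and 69.4 in far stroma. Heifer 3 was the highest and heifer 1 the lowest far stroma sample, and no values overlapped with parenchyma. With a log2 difference of 7.07 ± 0.40 (SE, limma adjusted p = 5.28e-08), KRT19 had the smallest difference of the 8 and ranked at place 107.

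**Figure D1:**
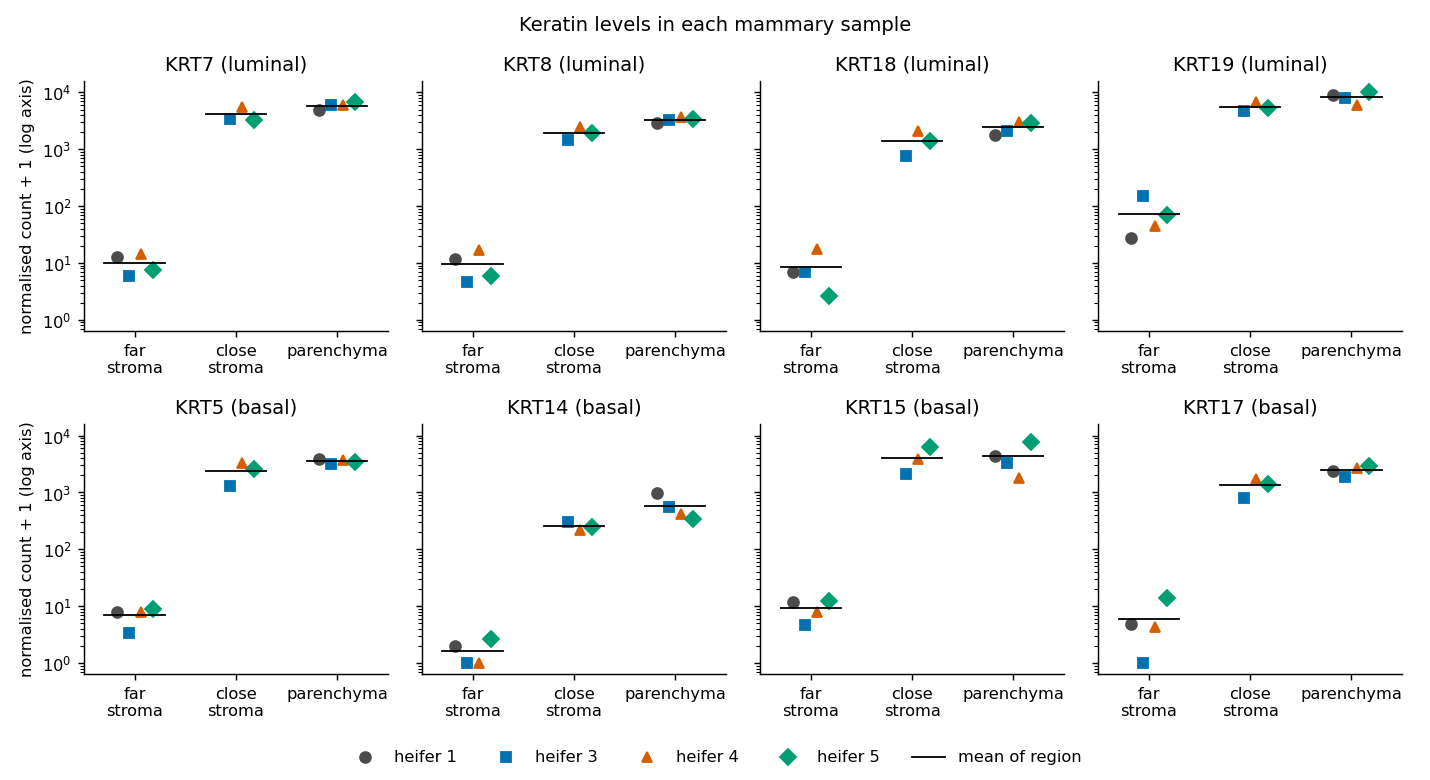
Level of each keratin in every sample, as normalised count + 1 on a log axis, for far stroma, close stroma and parenchyma (4, 3 and 4 samples). Points are samples, with a colour and symbol for each heifer, and lines are region means; in all 8 panels the far stroma points lie below every other point, and those of KRT19 reach from 26.4 to 151.2 normalised counts.

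Among the basal keratins, KRT5 (ENSBTAG00000038384), the type II keratin of basal cells, stood at 3894, 3230, 3697 and 3395 normalised counts in parenchyma samples of those heifers. In far stroma KRT5 stood at 6.85, 2.40, 6.77 and 8.06, on 20 reads in all, so that the groups lay far apart. The log2 difference of KRT5 was 9.07 ± 0.32 (SE, limma adjusted p = 2.17e-09). KRT14 (ENSBTAG00000007583), the type I partner of KRT5, stood at 965.1, 548.0, 418.1 and 347.0 in parenchyma. In far stroma only 2 reads of KRT14 were counted over 4 samples, 1 in each of heifers 1 and 5. The ratio of pooled KRT14 reads was 987 (95% interval 273 to 8150, counting error only), and the fitted log2 difference of 8.45 ± 0.39 (SE, limma adjusted p = 8.45e-09) depends on the 1 added to each value.

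KRT15 (ENSBTAG00000004903), a type I keratin of basal and progenitor cells in stratified epithelia, stood at 4313, 3342, 1796 and 7850 in parenchyma and at 10.8, 3.60, 6.77 and 11.3 in far stroma. Its parenchyma values were spread more widely than those of KRT5, and its log2 difference was 8.80 ± 0.45 (SE, limma adjusted p = 2.27e-08). KRT17 (ENSBTAG00000006806), a type I keratin of basal and myoepithelial cells and of skin appendages, stood at 2427, 1859, 2688 and 2899 in parenchyma. In far stroma KRT17 stood at 3.91, 0, 3.39 and 12.9, with no read in heifer 3. The limma log2 difference of KRT17, 9.19 ± 0.59 (SE, adjusted p = 1.36e-07), was larger than that of every other of the 8 keratins except KRT7. It also had the largest standard error among them. That place depends on the measure. By the ratio of means KRT17 stood at 488.8, below KRT14 (879.6), KRT7 (639.8), KRT5 (590.4) and KRT15 (533.5).

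The far stroma values rest on few reads. Summed over 4 samples, 15 reads were counted for KRT17, 20 for KRT5, 27 each for KRT15 and KRT18, 31 for KRT8 and 32 for KRT7. For KRT19 the sum was 235 reads, with 27 to 126 in each sample. Relative to the parenchyma of the same heifer, the far stroma level of the 8 keratins had a median of 0.247%, 0.0941%, 0.303% and 0.191% in heifers 1, 3, 4 and 5. For KRT19 the same shares were 0.291%, 1.89%, 0.745% and 0.692%, the highest of the 8 in heifers 3, 4 and 5. The luminal pair KRT19 and KRT7 was set against each other after these values were seen. The ratio of KRT19 to KRT7 in heifers 1, 3, 4 and 5 was 1.88, 1.34, 0.996 and 1.5 for parenchyma, and 2.25, 31.5, 3.25 and 10.8 for far stroma. Its log2 value averaged 0.48 ± 0.38 in parenchyma and 2.67 ± 1.64 in far stroma (n = 4 each, SD, exact permutation p = 0.0286, two-sided, the smallest possible with these groups). The ratio was higher in far stroma in 4 of 4 heifers, and an exact permutation within heifers, which pairs the samples, gave 0.125, the smallest p it allows with 4 pairs. Because the ratio was picked for this difference these p-values are descriptive, and with 5 added to each value in place of 1 the first was 0.0571.

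EPCAM, an adhesion protein of epithelial cells that is no keratin, stood at 96.9, 92.4, 48.5 and 124.2 in far stroma and at 1661, 1824, 2482 and 2021 in parenchyma. This is 5.83%, 5.07%, 1.96% and 6.14% of the parenchyma level of the same heifer, above the share of each of the 8 keratins. CDH1, the cadherin of epithelial junctions, reached 1.32 to 2.25% in far stroma. Not all luminal markers had such shares. CLDN7 and CLDN3 had the largest log2 differences of the 10 listed, 8.93 and 8.10. They averaged 3.22 and 8.08 in far stroma and 1969 and 2483 in parenchyma. TP63, a transcription factor of basal cells, had no read in the 4 far stroma samples and was at least 376-fold higher in parenchyma, with a floor of 3 reads over the group. The summed level of 10 luminal marker genes ran from 956.4 to 2271 normalised counts in far stroma and from 14030 to 19030 in parenchyma. Among these markers KIT and ESR1 did not pass between the regions (limma adjusted p = 0.865 and 0.226). They averaged 699.8 and 520.7 in far stroma and 715.8 and 684.9 in parenchyma, so the far stroma sum rests largely on them. Mesothelium, another epithelium that makes KRT7, KRT8, KRT18 and KRT19, was checked through 6 listed markers, of which 3 were measured. Their summed level ran from 31.3 to 57.6 in far stroma and from 54.4 to 233.5 in parenchyma, where heifer 5 was high through MSLN at 200.5. By limma 0 of the 2 tested passed, also by unadjusted p, while edgeR, DESeq2 and limma with the heifer as a block each called 1 higher in parenchyma. The part of these cell types in the keratin values was not tested.

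Close stroma was rich in keratin transcripts. All 8 keratins were higher there than in far stroma, in 3 of 3 heifers and without overlap, where 10.96% of tested genes were called higher and 5.99% lower, and 14.2% had every close stroma sample above every far stroma sample. The median log2 difference was 8.02, against 0.00 for all tested genes, and 8.32 with KRT14 at its ratio of reads. Parenchyma and close stroma were compared with the same far stroma samples, so that the values of both comparisons are not independent.

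KRT15 of close stroma stood at 2143, 3946 and 6223 normalised counts in heifers 3, 4 and 5. Its close stroma values spanned much of the range seen in parenchyma, and its log2 difference from far stroma was 8.79 ± 0.49 (SE, limma adjusted p = 1.37e-07), beside 8.80 for parenchyma. KRT7 stood at 3465, 5630 and 3268 in close stroma, with heifer 4 the highest (log2 8.72 ± 0.30 SE, limma adjusted p = 1.10e-08). KRT5 stood at 1299, 3311 and 2574, lowest in heifer 3 (8.40 ± 0.35 SE, limma adjusted p = 2.03e-08). KRT17 stood at 814.9, 1734 and 1437, again lowest in heifer 3 (8.25 ± 0.63 SE, limma adjusted p = 1.78e-06). KRT5, KRT8, KRT17, KRT18 and KRT19 had the same order of animals, heifer 3 below heifer 5 below heifer 4. KRT8 stood at 1429, 2490 and 1895 in heifers 3, 4 and 5 (7.79 ± 0.37 SE, limma adjusted p = 4.36e-08), and KRT18 at 746.9, 2097 and 1371 (7.55 ± 0.52 SE, limma adjusted p = 6.19e-07). KRT19 stood at 4682, 6877 and 5398, with the smallest of the 8 differences (6.53 ± 0.44 SE, limma adjusted p = 5.20e-07). KRT14 had another order. It stood at 301.0, 222.2 and 249.9, highest in heifer 3, with a ratio of pooled reads to far stroma of 432 (95% interval 119 to 3580, counting error only).

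**Figure D2:**
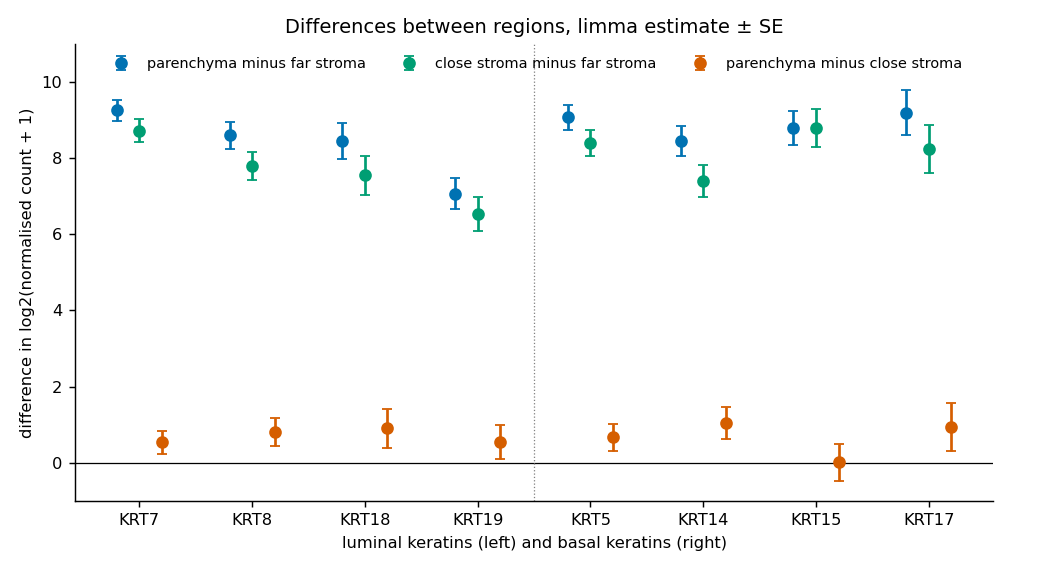
Log2 difference of each keratin between regions, in log2(normalised count + 1), with limma standard errors as bars, for parenchyma minus far stroma, close stroma minus far stroma and parenchyma minus close stroma. Both differences from far stroma lie between 6.53 and 9.26 for all 8 keratins, while those between parenchyma and close stroma lie between 0.01 and 1.04.

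Between parenchyma and close stroma none of the 8 keratins passed the limma test, while 2.02% of tested genes were called higher in parenchyma and 5.10% lower. Of the 8, only KRT14 had an unadjusted p below 0.05, and edgeR called none with either scaling. DESeq2 on the recovered reads called 3 higher in parenchyma, KRT8 (adjusted p = 0.0179), KRT14 (0.0172) and KRT17 (0.0436), which are also the 3 with every parenchyma sample above every close stroma sample, as 12.8% of all tested genes had. By DESeq2, 5.80% of all genes with an adjusted p were called higher, against 2.02% by limma. The estimates, which share the same libraries, were positive for all 8 keratins, though KRT15 stood only at 0.01. Their median was 0.74 against 0.04 for all tested genes. Without close stroma of heifer 3 that median was 0.47.

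KRT14 averaged 569.5 ± 276.6 normalised counts in parenchyma and 257.7 ± 40.0 in close stroma (SD, n = 4 and 3), a log2 difference of 1.04 with a 95% interval of 0.13 to 1.94 (limma adjusted p = 0.152). The interval of KRT8 reached from 0.00 to 1.63 around 0.81 (adjusted p = 0.211), with means of 3335 ± 366.5 and 1938 ± 531.6. KRT17 averaged 2468 ± 449.4 and 1329 ± 468.8, and its interval of -0.43 to 2.32 around 0.94 was wider (adjusted p = 0.392). The limma spread was estimated over all 3 regions together, so far stroma values also enter these intervals and p-values. Far stroma values of KRT17 ran from 0 to 12.9 on 15 reads in all, so its interval is not a measure of parenchyma and close stroma alone. For the remaining keratins the groups overlapped. The log2 difference was 0.90 for KRT18 (interval -0.22 to 2.02), 0.67 for KRT5 (-0.09 to 1.43), 0.54 for KRT7 (-0.12 to 1.2) and 0.54 for KRT19 (-0.41 to 1.48). Without close stroma of heifer 3 the difference was 0.28 for KRT5, 0.50 for KRT18 and 0.63 for KRT17, and without that of heifer 4 it was 0.95, 1.25 and 1.17 in that order. KRT15 averaged 4326 ± 2568 in parenchyma and 4104 ± 2044 in close stroma, with a log2 difference of 0.01 (interval -1.05 to 1.07, limma adjusted p = 0.993). Its sign was not stable, since with the heifer as a block it was -0.10, and leaving out single samples moved it between -0.39 and 0.38. All 8 intervals include a 2-fold difference, which is 1 on the log2 scale.

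Within animals, the close stroma level was a different share of parenchyma in each heifer. Over the 8 keratins the median share was 49.4% in heifer 3, 80.1% in heifer 4 and 54.3% in heifer 5. In heifer 3 all 8 keratins lay between 34.9 and 64.1%, lowest for KRT18 and highest for KRT15. In heifer 5 they lay between 47.3 and 79.3%, with the same keratins at the ends. Heifer 4 ranged from 53.1% for KRT14 to 116% for KRT19 and 220% for KRT15, so that these last 2 were more abundant in its close stroma than in its parenchyma. The 6 others were below parenchyma in 3 of 3 heifers. EPCAM of close stroma reached 42.5%, 106% and 82.6% of parenchyma in heifers 3, 4 and 5, and TP63 reached 19.1%, 109% and 97.8%. Both were thus lowest in heifer 3 and highest in heifer 4, as were the medians of the keratins. Other listed markers had another order. The share of NGFR was highest in heifer 3, at 664.4, 722.9 and 709.1 in close stroma and 1965, 2466 and 2759 in parenchyma. That of OXTR was highest in heifer 5, at 20.1, 58.1 and 94.2 against 87.0, 79.3 and 63.2. The summed level of 5 adipocyte markers ran from 28510 to 110200 in close stroma, against 413.8 to 496.9 in parenchyma and 119500 to 152500 in far stroma. How far the mixture of cells in each piece of close stroma enters the keratin shares was not tested.

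**Figure D3:**
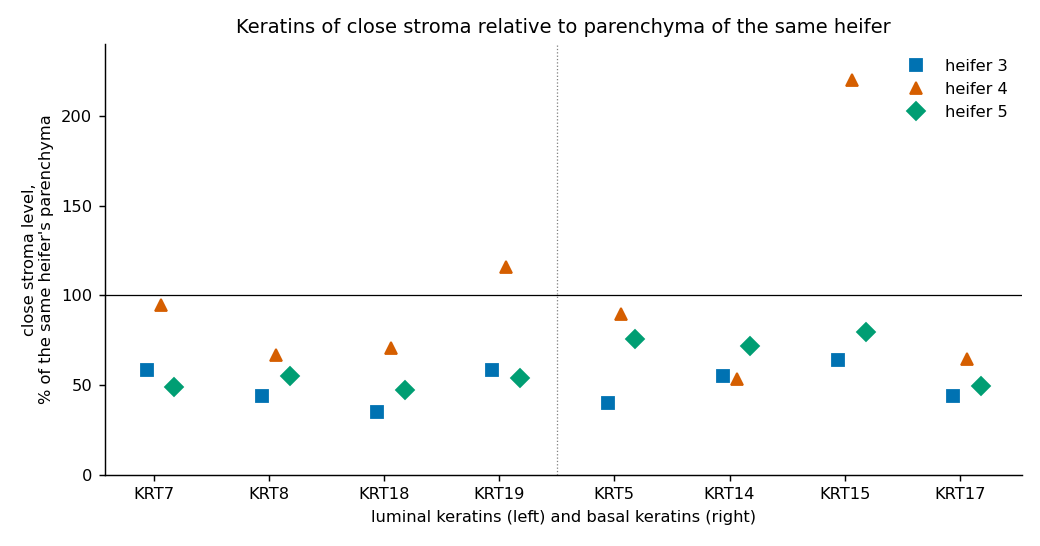
Close stroma level of each keratin as a percentage of the parenchyma level of the same heifer, for heifers 3, 4 and 5, with the line at 100 marking equal levels. All points of heifer 3 lie at or below 64.1%, and KRT15 of heifer 4 stands at 220%.

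The keratins differed in how evenly they were measured across the parenchyma of 4 heifers. KRT5 had a coefficient of variation of 8.39%, KRT8 of 10.99%, KRT7 of 13.0%, KRT17 of 18.2%, KRT19 of 21.4% and KRT18 of 23.2%. KRT14 and KRT15 stood apart with 48.6 and 59.4%. For comparison, 5858 genes with a parenchyma mean of at least 300 had a median of 14.4%, and 82.9% of them varied more than KRT5, 2.27% more than KRT14 and 1.35% more than KRT15. The highest KRT15 sample, heifer 5, was 4.37 times the lowest, heifer 4. KRT14 was highest in heifer 1, at 2.78 times its lowest sample, that of heifer 5. Of the 28 pairs among the 8 keratins, 2 ordered the 4 parenchyma samples alike. KRT8 and KRT18 both ran from heifer 1 through 3 and 5 to 4, and KRT15 and KRT19 ran from heifer 4 through 3 and 1 to 5. The partners KRT5 and KRT14 did not share an order. With 4 samples such orders are a description.

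Ratios between keratins were set side by side in parenchyma and close stroma. KRT5 to KRT8 and KRT14 to KRT18 set a basal against a luminal keratin. The other ratios compare keratins of the same layer and do not measure the balance of layers. In the same order of heifers, the ratio of KRT18 to KRT8 was 0.632, 0.656, 0.793 and 0.838 in parenchyma and 0.522, 0.842 and 0.723 in close stroma. The ranges overlapped for this luminal pair. The ratio of KRT14 to KRT5 in the basal pair was 0.248, 0.170, 0.113 and 0.102 in parenchyma and 0.232, 0.0671 and 0.0971 in close stroma. The basal to luminal ratio of KRT5 to KRT8 was 1.35, 0.992, 0.987 and 0.981 in parenchyma and 0.909, 1.33 and 1.36 in close stroma. In parenchyma 3 of 4 samples were thus within a narrow band for KRT5 to KRT8, and heifer 1 lay above it. The differences of the log2 ratios, parenchyma minus close stroma, were 0.09 for KRT18 to KRT8, 0.37 for KRT14 to KRT5, -0.14 for KRT5 to KRT8, 0.14 for KRT14 to KRT18 and -0.00 for KRT19 to KRT7. None passed an exact permutation test over samples (two-sided p = 0.743, 0.457, 0.686, 0.857 and 0.971 in that order, adjusted p = 0.971 for each of the 5). With 4 against 3 samples that test cannot go below 0.0571, so it could not have called a difference.

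Profiles over the 7 parenchyma and close stroma samples were compared by the root mean square of the difference between log2 values centred on their own mean. The closest pair was KRT7 with KRT8, at 0.21 log2 units, and KRT8 with KRT18 stood at 0.23. KRT17, a basal keratin, was about as close to KRT8 (0.22) and to KRT18 (0.22) as to KRT5 (0.23). KRT14 was at 0.65 from its partner KRT5, and KRT14 and KRT15 were the farthest pair at 1.03. Both, though grouped as basal, were nearest to the luminal KRT19, at 0.57 and 0.59. The 6 pairs of luminal keratins had a median of 0.30, the 16 pairs of a luminal and a basal keratin 0.48 and the 6 pairs of basal keratins 0.70. KRT14 and KRT15 thus moved apart from the other 6 keratins, which stayed within 0.48 of each other. These distances share the same 7 libraries and describe them only.

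**Figure D4:**
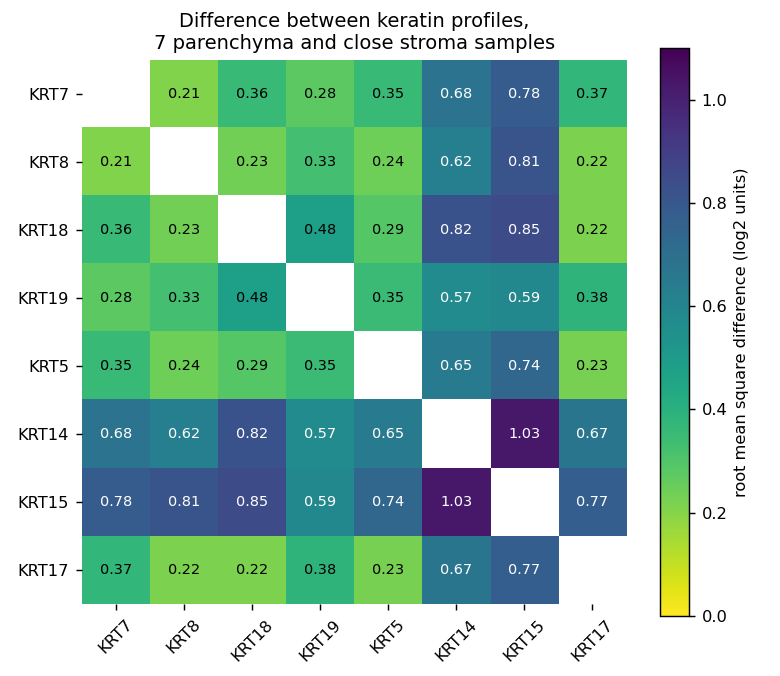
Root mean square difference in log2 units between the centred profiles of each pair of keratins over 7 parenchyma and close stroma samples, with low values in yellow and high values in dark blue. The rows of KRT14 and KRT15 hold the largest values, up to 1.03, and KRT7 with KRT8 the smallest, 0.21.

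Genes outside the 8 whose profile over all 11 samples was most like that of KRT8, among 13347 searched, included CBLC, a ubiquitin ligase, and PKP3, a desmosome protein. Their root mean square differences from KRT8 were 0.272 and 0.363 log2 units. CBLC averaged 739, 411 and 1.09 normalised counts in parenchyma, close stroma and far stroma. For KRT5 the nearest were TFAP2C, a transcription factor of epithelia, at 0.193, DMGDH, a mitochondrial enzyme of choline breakdown, at 0.447 and ITGB6, an epithelial integrin subunit, at 0.491. TFAP2C averaged 1182 ± 134.7 in parenchyma and 1.18 ± 0.854 in far stroma (n = 4 each, SD). In far stroma these 5 genes averaged between 0 and 1.18 normalised counts, and the samples share the step between far stroma and the other regions.

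The table held 9 other keratin genes, and they were sparse. Of these, 4 reached the filter of a mean of 10 in at least 1 region. KRT1, a keratin of the upper epidermis, was called higher in parenchyma (limma adjusted p = 0.00209) and had no read in far stroma, which makes it at least 22.8-fold higher with a floor of 3 reads over the group. KRT1 reached the filter only through parenchyma and close stroma, the regions where it was high, with means of 21.7 and 16.3. Its parenchyma values were 4.52, 3.25, 17.8 and 61.3 in heifers 1, 3, 4 and 5, so that heifer 5 held most of them, and its close stroma values were 4.79, 15.0 and 29.0 in heifers 3, 4 and 5. KRT75, a keratin of hair follicles, had 20 reads in parenchyma and 1 in far stroma, a ratio of 14.1 (95% interval 2.25 to 584), and lay just outside the threshold (limma adjusted p = 0.0513, against 0.0250 by DESeq2 and 0.0382 by edgeR with TMM scaling). In close stroma against far stroma KRT75 passed, as did KRT1, although KRT75 reached the filter only through close stroma, the region where it was high. The call on KRT1 was lost without close stroma of heifer 5 (adjusted p = 0.0608) or with 5 added to each value (0.0551), and that on KRT75 without far stroma of heifer 5 (0.0508). KRT80 (log2 0.70 ± 0.40 SE, limma adjusted p = 0.163) and KRT10 (-0.32 ± 0.42 SE, 0.551) did not pass between parenchyma and far stroma with the authors' scaling. With each library scaled to its total KRT80 passed at 1.11 and KRT10 stood at 0.09. Between parenchyma and close stroma 0 of the 4 passed, also by unadjusted p and by DESeq2.

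Proteins that bind keratins or anchor them to desmosomes and hemidesmosomes were only partly raised. Of 20 genes, 12 were higher in parenchyma than in far stroma, 3 were lower and 5 did not pass, against 26.1% higher and 23.99% lower among all tested genes, with a median log2 difference of 1.73. COL17A1, a transmembrane collagen of hemidesmosomes, averaged 7913 ± 2281 in parenchyma and 9.51 ± 0.766 in far stroma (n = 4 each, SD, log2 9.52 ± 0.46 SE). SFN, a 14-3-3 protein that binds keratins in mouse, averaged 205.8 ± 34.3 and 2.67 ± 1.197 (log2 5.87 ± 0.28 SE). The desmosome genes PKP3, with a ratio of reads of 1420 (95% interval 255 to 56300), and DSG3, at least 163-fold higher over a floor of 3 reads, were near 0 in far stroma. PPL, DST and PLEC, linkers that also occur outside epithelia, were lower in parenchyma at -0.90, -0.75 and -0.62. With each library scaled to its total none of these 3 passed, at -0.48, -0.33 and -0.20, and 14 were higher. The call on PLEC was also lost without parenchyma of heifer 1 (adjusted p = 0.0630), without parenchyma of heifer 4 (0.0566) and in the heifers with all 3 regions (0.0554). Between close and far stroma 11 were higher and 1, PPL, was lower, against 10.96% higher and 5.99% lower among all tested genes. The call on PPL was lost with library totals (limma adjusted p = 0.0950) and without close stroma of heifer 5 (0.108). Between parenchyma and close stroma 5 of 20 had an unadjusted p below 0.05, all higher in parenchyma except DST, which was lower at -0.49. By adjusted p 0 passed, against 2.02% higher and 5.10% lower among all tested genes. The 0 became 2 without close stroma of heifer 4.

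Transcription factors of epithelia were raised almost as a whole. Of 18, 17 were higher in parenchyma than in far stroma, against 26.1% of all tested genes, with a median log2 difference of 6.65, or 7.80 with genes of few reads at their ratio or bound, and 1, SOX15, did not pass (limma adjusted p = 0.0835). SOX10 averaged 5584 ± 288.1 in parenchyma and 69.5 ± 10.6 in far stroma (n = 4 each, SD, log2 6.32 ± 0.19 SE). EHF averaged 2072 ± 487.6 and 5.65 ± 3.47 (log2 8.38 ± 0.34 SE), and FOXA1, a factor of hormone-responsive luminal cells, had a ratio of reads of 2150 (95% interval 596 to 17800). Between close and far stroma 17 of 18 were higher as well, against 10.96% of all tested genes. Between parenchyma and close stroma only SOX10 passed, higher in parenchyma as were 2.02% of all tested genes. That call was lost without close stroma of heifer 3 (limma adjusted p = 0.0806) or of heifer 5 (0.0680). DESeq2 called 3 of the 18, and limma called 3 without close stroma of heifer 4 and 2 without far stroma of heifer 4.

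The other intermediate filament genes, those of mesenchyme, muscle, nerve and the nuclear lamina, were called about as often as genes in general. Of 13 listed genes 10 were measured and 9 tested, and 3 were higher and 2 lower in parenchyma than in far stroma, against 26.1% and 23.99% of all tested genes, with a median log2 difference of -0.39. VIM, the filament protein of mesenchymal cells, stood at 13118, 8103, 8429 and 9927 normalised counts in parenchyma, at 51907, 24248 and 24314 in close stroma and at 92559, 77024, 107669 and 92974 in far stroma. The 3 regions did not overlap for VIM, which was lowest in parenchyma and highest in far stroma, and its log2 difference between parenchyma and far stroma was -3.24 ± 0.29 (SE, limma adjusted p = 2.14e-06). VIM was also the 1 gene of this list that passed between parenchyma and close stroma, at -1.69 ± 0.31. It was lower in close than in far stroma, at -1.56 ± 0.31, where 2 others were higher. Over all tested genes, 10.96% were called higher and 5.99% lower in close than in far stroma. NEFM, a neurofilament subunit, stood at 73.1, 696.8, 246.0 and 270.1 in parenchyma and between 0 and 2.94 in far stroma (log2 6.80 ± 0.70 SE, limma adjusted p = 7.55e-06). The nuclear lamin LMNB1 was higher in parenchyma by 2.53 ± 0.34. LMNA, another lamin, was lower at -0.73 ± 0.17, a call that was lost with each library scaled to its total (-0.30).

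**Figure D5:**
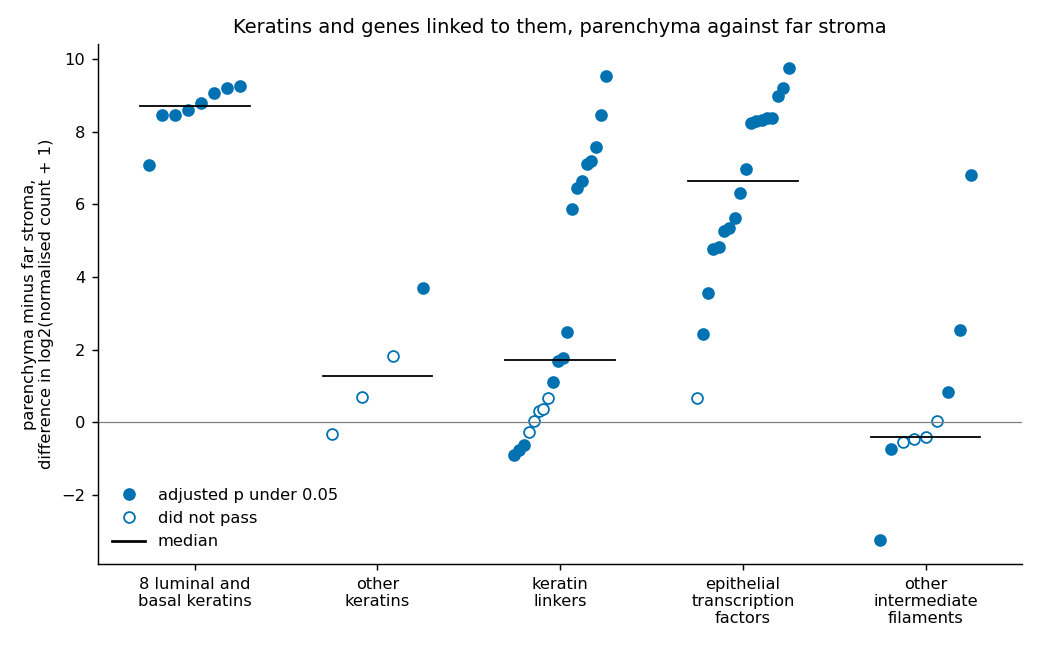
Difference in log2(normalised count + 1) between parenchyma and far stroma for the 8 keratins, other keratins, keratin linkers, epithelial transcription factors and other intermediate filament genes. Each point is a tested gene, filled where limma's adjusted p was under 0.05, and lines are medians, which stand at 8.70, 1.27, 1.73, 6.65 and -0.39 from left to right.

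Markers of other tissues were read beside the keratins. Of 10 luminal markers, 7 were higher in parenchyma than in far stroma and 3 did not pass. Of 10 basal and myoepithelial markers, 8 were higher and 2 did not pass. Over all tested genes, 26.1% were called higher and 23.99% lower in this comparison. All 5 adipocyte markers were lower in parenchyma, as were 4 of 5 of blood endothelium and 3 of 5 of fibroblasts, while 3 of 5 leukocyte markers were higher and 2 lower. With each library scaled to its total, 1 fibroblast marker and 1 leukocyte marker were still lower, and the counts for adipocytes and endothelium stayed at 5 and 4. Leaving out parenchyma of heifer 3 also left 1 for fibroblasts, and leaving out heifer 4 or 5 of parenchyma or heifer 1 or 4 of far stroma left 1 for leukocytes. Of 10 epidermis markers 3 were measured, KRT1 and KRT10 among them. Their summed level ran from 24.4 to 88.8 in parenchyma, 38.4 to 67.0 in close stroma and 22.8 to 69.4 in far stroma. In far stroma that sum was KRT10 alone. Of the 6 genes listed for keratinocytes of hair and the teat canal, 0 were found by symbol, so no value was analysed here.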

How the data were processed

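Poly A RNA of 11 mammary samples was sequenced, per the labels' protocols. The values are a signal that the authors deposited under the heading of normalised counts, for each gene in each sample. Per the submitters' processing notes, the tools were STAR, HTSeq, cutadapt and DESeq2 and the build was ARS-UCD1.2, with no versions or settings, and the sources used here do not say whether strand was used. In every sample each value was a multiple of a fixed step, the worth of 1 read, and 100% of the values were within 0.05 reads of a whole number, which gave the reads behind them.

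The test was limma (version 3.58.1, R 4.3.3) on log2(value + 1), with a trend of variance on mean, in 1 fit of 3 regions, for 14596 genes whose highest region mean was 10 or more. This scale understates the change of low genes. The design had allowed for raw or for normalised counts, and the latter applied. Benjamini-Hochberg adjustment of p-values ran over all genes of a comparison, and genes were called under 0.05. Single ratios were tested by exact permutation over samples. A group with 1 to 3 reads in all is given by a ratio of pooled reads with a 95% interval, and one with 0 reads by a floor of 3 reads. PCR copies were not distinguished.

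The alternatives were other scalings, edgeR (version 4.0.16) and DESeq2 (version 1.42.0) on recovered reads, pseudocounts of 0.5 and 5, no filter, the heifer as a block and each sample left out. The numbers in the labels name animals, so they pair samples. Deviations from region means correlated at 0.117 to 0.383 in 10 pairs from 1 heifer and at -0.349 to 0.224 in 30 pairs from different heifers. The keratins, gene lists and the rule for named genes (up to 4 of a list with the smallest p between parenchyma and far stroma, and the 3 genes nearest in profile) were chosen with earlier results of these data known. A gene that the rule names is not reported here. KRT80, KRT10, SOX15, PPL, DST, PLEC, EPCAM, CDH1, CLDN3, CLDN7, TP63, NGFR, OXTR, MSLN, KIT and ESR1 were named as further members of lists after their values were seen. Gene neighbours are those of RefSeq's ARS-UCD2.0 annotation. The script was tested on simulated data.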

Additional observations from a re-analysis of the deposited data

How the results depend on the processing

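The keratins called numbered 8, 0 and 8 (parenchyma against far stroma, parenchyma against close stroma, close against far stroma) under each alternative, the heifer as a replicate block included, except that DESeq2 called 3 between parenchyma and close stroma. Both differences from far stroma kept their direction and call for all 8 keratins under every alternative; KRT14, with few reads, ranged most (6.57 to 9.89 for parenchyma). KRT15 between parenchyma and close stroma changed sign with the replicate block (-0.10), in the heifers with all 3 regions (-0.05, an alternative chosen after seeing the data) and between -0.39 and 0.38 with a sample left out; the ratio of KRT14 to KRT18 changed sign with the block (-0.29). With a sample left out the ratios ranged from -0.11 to 0.24 for KRT18 to KRT8, -0.02 to 0.88 for KRT14 to KRT5, -0.15 to 0.16 for KRT19 to KRT7 and -0.31 to 0.65 for KRT14 to KRT18. KRT19 to KRT7 against far stroma stayed at -2.72 to -1.51, and within heifers (the replicate block) at -2.19 with an exact permutation p of 0.125. KRT10 against far stroma reversed to 0.09 with library totals and ranged from -0.64 to 0.00 with a sample left out, the latter without far stroma of heifer 5. The causes were not tested.

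Over all genes, scaling each library to its total moved the median difference between parenchyma and far stroma from 0.0611 to 0.487 and the calls from 3805 higher and 3501 lower to 6368 and 2093 (75.3% higher against 52.1%). Close against far stroma then gave 2806 and 302, against 1600 and 875. Between parenchyma and close stroma (295 higher, 744 lower), DESeq2 gave 845 and 1216, the replicate block 496 higher and the heifers with all 3 regions 183 higher. With a sample left out, that comparison gave 53 to 384 higher and 326 to 912 lower, both fewest without close stroma of heifer 3, and close against far stroma gave 1018 to 1940 higher and 176 to 1692 lower, fewest without close stroma of heifer 4 and, for lower calls, most without that of heifer 3. The block gave 4103 and 3686 between parenchyma and far stroma. Close stroma rests on 3 animals and far stroma keratins on few reads, which limits both comparisons.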

Other observations

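KRT24, another type I keratin, was seen mainly in 1 sample, the parenchyma of heifer 1, at 32.4 normalised counts, and stood at no more than 6.34 in any other sample. KRT78, a type II keratin, was highest in the parenchyma of heifer 5, at 20.1, where KRT1 and the mesothelial gene MSLN were also high, but it reached 12.0 in the far stroma of heifer 3 and 11.3 in that of heifer 5. Neither KRT24 nor KRT78 reached a mean of 10 in any region, so neither was tested, and these values were singled out after they were seen.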
